A study of Mus musculus with 30 samples.

Results

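The MYC, MAX and MXD network was followed across sorted haematopoietic cells of the mouse bone marrow. Its 10 genes, taken by symbol from 46113 counted genes, were the activators Myc, Mycn and Mycl, their partner Max, the antagonists Mxd1, Mxd3, Mxd4, Mxi1 and Mnt, and the scaffold gene Mga. RNA came from 30 libraries of 100 sorted cells each, from C57BL/6 mice aged 8 to 10 weeks, and no engineered allele is named in the labels. The sort gate for haematopoietic stem cells (HSCs) was Lineage-, EPCR+, CD150+ and CD48-, and the gate for progenitor cells (HPCs) differed from it in taking CD48+ cells. The first experiment compared HSCs of untreated mice (n = 4) with HSCs isolated on day 6 (n = 4) or day 10 (n = 6) following a dose of 5-fluorouracil (5-FU), a drug toxic to dividing cells. A separate experiment took untreated mice and compared HSCs cultured for 1 day (n = 4) or left uncultured (n = 4). In the CD48 experiment, CD48+ HPCs (n = 4) were set against CD48- HSCs (n = 4), both 10 days after 5-FU. The labels do not say whether libraries of a group came from separate animals, so the p-values below measure the spread between these libraries.

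MYC, MYCN and MYCL are transcription factors that bind E-box DNA as dimers with MAX and raise transcription of genes for growth and division. The MXD proteins and MNT also dimerise with MAX at such sites and lower transcription through the SIN3 corepressor, while MGA joins MAX to a Polycomb complex called PRC1.6. In mouse bone marrow, Myc is known for the balance between HSC self-renewal and differentiation, and HSC survival is known to need Myc and Mycn together.

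The libraries held 5.21 to 12.2 M exon reads, of which 5987 to 11060 fell on the network. Levels are given as CPM, exon reads scaled to library size, with errors as SD over libraries, so a lower value can mean fewer cells of a type or less RNA per cell, which cannot be told apart in bulk samples. All 11 HSC markers were detected in each library, with a summed level of 2820 to 2917 CPM at day 6 against 5037 to 5863 CPM untreated, 2487 to 2698 CPM in cultured against 4591 to 4987 CPM in uncultured HSCs, and 1923 to 2328 CPM in CD48+ HPCs against 3373 to 4098 CPM in CD48- HSCs. By gene, in the edgeR test described below, 0 of the 11 were higher and 5 lower at day 6, with a median log2 change of -0.20. In culture 2 were higher and 9 lower, and in CD48+ HPCs 0 and 10 (median -0.91 in each). Of all genes, 25.7%, 33.8% and 12.5% were lower in these comparisons. Cd48 was at 51.4 ± 4.74 CPM in CD48+ HPCs and 3.07 ± 1.79 CPM in CD48- HSCs. Introns took a smaller share of gene reads at day 6 (57.5 ± 0.867%) than in untreated HSCs (65.1 ± 1.28%), and in cultured (56.3 ± 0.157%) than in uncultured HSCs (66.4 ± 0.940%). In CD48+ HPCs introns took 59.7 ± 1.63%, against 63.6 ± 2.34% in CD48- HSCs. Further, 8 libraries stood apart by transcripts of other cells or of interferon-induced genes. They were untreated replicate 3 and uncultured replicates 1 and 4 (granulocyte and monocyte genes), day-6 replicate 1 and HPC replicate 3 (macrophage), CD48- replicate 3 (erythroid), day-10 replicate 3 (endothelial and stromal) and day-10 replicate 6 (the highest Cxcl10 and Oas2). Values without them stand beside the results they change. The choice was made after seeing the data, and other libraries with such transcripts were kept. Among these were untreated replicate 1 and uncultured replicate 3 (erythroid sums of 6436 and 4837 CPM) and day-10 replicate 4 (Oas2 at 605 CPM).

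The promoters of 4 members are shown because they hold E-box or E2F letters and belong to the genes that moved most or to the shared partner. Each window runs from 250 bases before to 50 bases after the transcription start, from RefSeq on GRCm38.p6, with matched letters in capitals. The E-box searched was CACGTG, and the E2F letters were TTTGGCGC, TTTCGCGC, TTTCCCGC, TTTGCCGC and TTCCCGCC, on both strands.
Mxd4: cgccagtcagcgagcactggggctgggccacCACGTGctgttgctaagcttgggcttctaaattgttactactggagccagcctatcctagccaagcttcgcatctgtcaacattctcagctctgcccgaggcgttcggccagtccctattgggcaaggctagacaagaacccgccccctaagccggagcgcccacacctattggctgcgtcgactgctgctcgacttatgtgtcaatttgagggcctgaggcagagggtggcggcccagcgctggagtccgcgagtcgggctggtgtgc
Mxd3: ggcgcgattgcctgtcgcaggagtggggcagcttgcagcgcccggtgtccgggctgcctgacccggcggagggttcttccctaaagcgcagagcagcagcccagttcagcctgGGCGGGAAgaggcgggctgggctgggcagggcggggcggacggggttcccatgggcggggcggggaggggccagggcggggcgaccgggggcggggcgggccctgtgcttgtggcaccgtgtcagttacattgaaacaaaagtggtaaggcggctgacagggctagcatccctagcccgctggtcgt
Mycn: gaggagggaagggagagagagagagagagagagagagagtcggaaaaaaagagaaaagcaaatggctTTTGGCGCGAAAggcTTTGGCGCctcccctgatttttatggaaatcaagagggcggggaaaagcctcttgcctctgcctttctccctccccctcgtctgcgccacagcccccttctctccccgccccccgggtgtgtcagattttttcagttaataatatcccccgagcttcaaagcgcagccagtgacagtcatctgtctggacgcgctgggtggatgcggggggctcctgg
Max: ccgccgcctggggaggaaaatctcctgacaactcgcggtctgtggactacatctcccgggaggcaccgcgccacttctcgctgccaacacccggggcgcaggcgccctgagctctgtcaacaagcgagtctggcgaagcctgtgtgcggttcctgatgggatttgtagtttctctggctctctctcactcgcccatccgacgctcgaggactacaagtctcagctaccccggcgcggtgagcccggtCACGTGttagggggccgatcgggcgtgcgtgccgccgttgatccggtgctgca
The windows, all on the minus strand, are chr5:34187661-34187960 for Mxd4, chr13:55329682-55329981 for Mxd3, chr12:12941787-12942086 for Mycn and chr12:76962199-76962498 for Max. The Max E-box spans the start site, with its first base at position -3, and the Mxd4 E-box begins at position -219. The Mycn window holds 3 E2F matches, the first and second overlapping, and the Mxd3 window holds 1, on the strand opposite to the gene. Mnt also has an E-box, at -123, whereas no searched letters were found in the windows of Mycl, Mxd1, Mxi1 or Mga. For scale, 7.15% of 32851 RefSeq windows hold the E-box and 3.89% hold an E2F match. A match is a description of letters and not of binding. Myc has no entry in the promoter table.

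Mycn and Myc were the most abundant members. To compare genes, levels were divided by exon length, and as means over the 30 libraries Mycn stood at 104.5 and Myc at 74.8 CPM per kilobase of exon. Mxd4 followed with 18.3, Mga with 15.6, Mxd1 with 14.8, Max with 14.4, Mxd3 and Mnt with 10.6 each and Mxi1 with 9.20 CPM per kilobase. Exon length is the union of all annotated transcripts, which for Mga comes to 21266 bases over 16 transcripts, so genes with many transcripts are set low on that scale. Mycl was barely detected, at 0.0512 CPM per kilobase.

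In the order of group means, Myc was highest in uncultured HSCs (269.7 CPM), followed by cultured HSCs (246 CPM), CD48+ HPCs (233 CPM), untreated (176 CPM), day-6 (147 CPM), day-10 (121 CPM) and CD48- HSCs (94.1 CPM). Mycn was highest at day 6 (364 CPM) and lowest in CD48+ HPCs (150.4 CPM), and in both genes each group overlapped with its neighbour in that order. These orders run across separate experiments, and the uncultured and untreated control HSCs did not overlap in Myc (239 to 310.1 and 133 to 235 CPM). For Mxd4, day-6 HSCs (12.1 CPM) and cultured HSCs (5.11 CPM) stood below the other 5 groups (23.8 to 29.8 CPM) without overlap. Mga was highest in untreated (421 CPM) and uncultured HSCs (392 CPM), the groups that had met neither drug nor culture, and no other group overlapped with these.

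**Figure D1:**
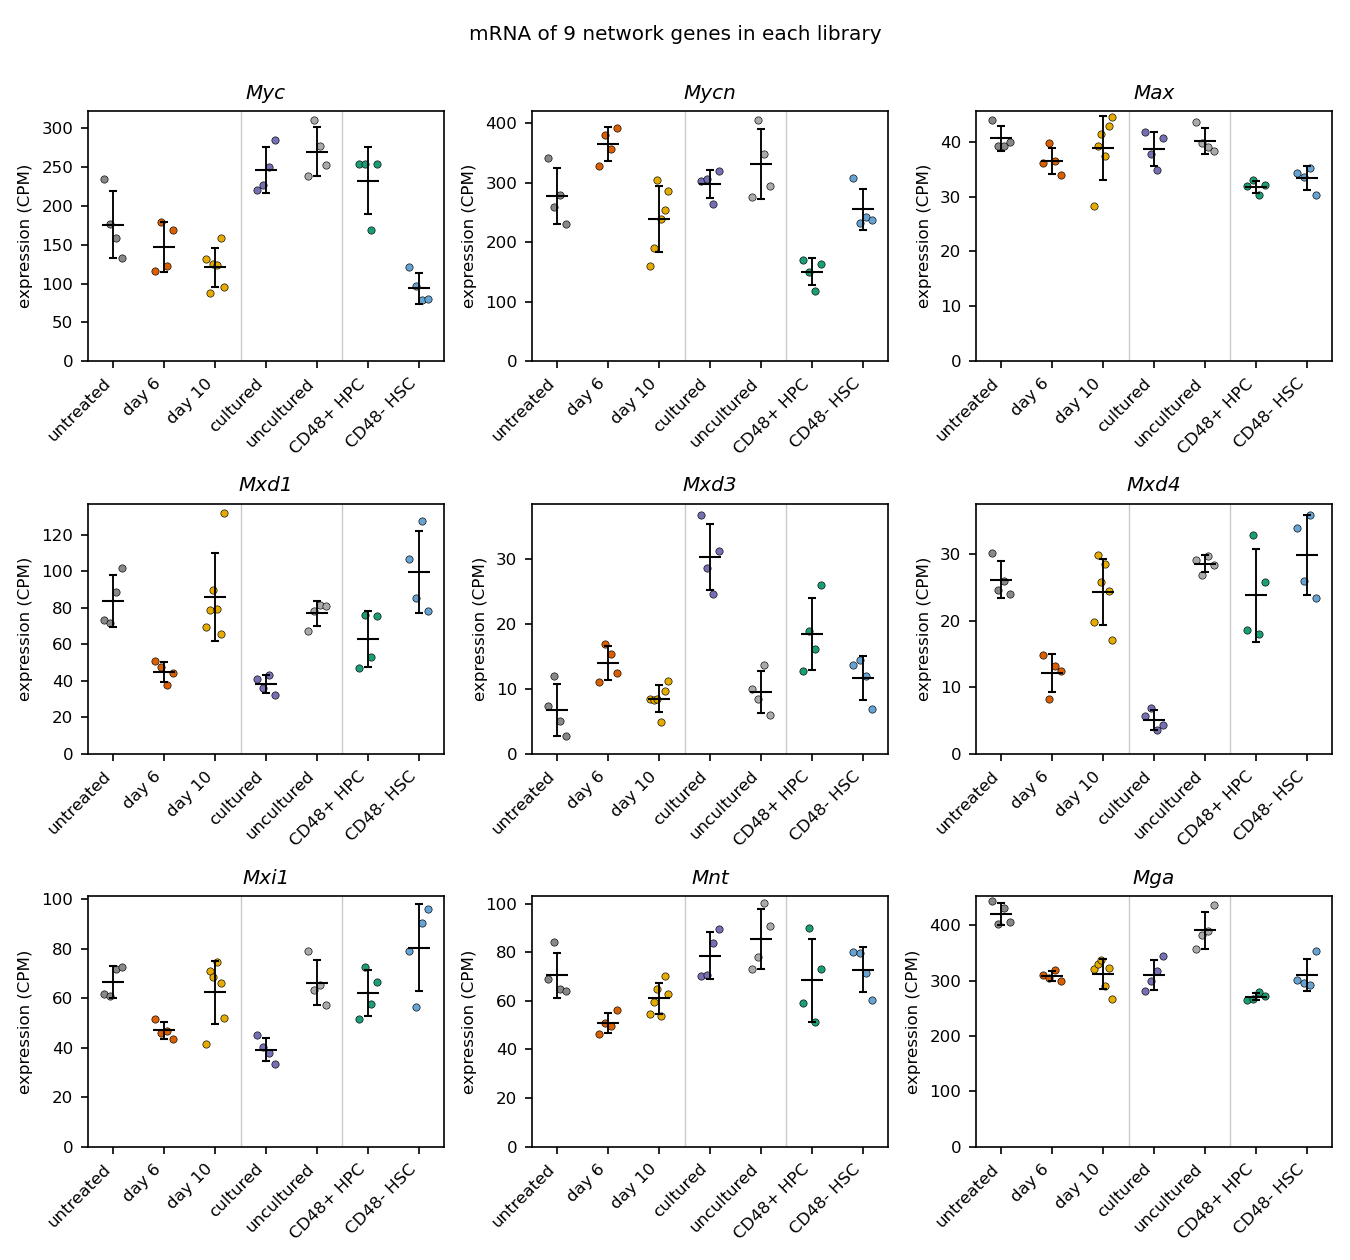
Level of 9 network members in each of the 30 libraries, in CPM on a linear axis from 0. Points are libraries, horizontal marks are group means and error bars SD, with groups along the x axis. Mxd4 was lowest in cultured HSCs (3.60 to 6.84 CPM), and Myc lay higher in CD48+ HPCs (168 to 254 CPM) than in CD48- HSCs (79.0 to 121 CPM).

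At 6 days after 5-FU, Mga and the 5 antagonists changed, and the activators and Max did not pass the test. Of 9 members tested with edgeR's quasi-likelihood test (Benjamini-Hochberg adjusted p under 0.05), 6 changed against untreated HSCs, where 51.4% of all 12886 genes changed. Mxd1, Mxd4, Mxi1, Mnt and Mga were lower (25.7% of all genes were) and Mxd3 was higher (25.7% of all genes were). With 6 of 9 against a background of 51.4%, the network's share alone is not far from that of all genes. The members' median log2 change was -0.45, and that of all genes -0.04. Counting reads in introns in place of exons, 3 of the 9 passed, which were Mxd4, Mxi1 and, newly, Myc. The background of 51.4% is for exon reads and does not apply to this count. Mxd1 (adjusted p = 0.298), Mxd3 (0.305), Mnt (0.133) and Mga (0.216) were lost.

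Markers of other cells also moved at day 6. Erythroid markers summed to 380 to 499 CPM at day 6 (6 to 8 of 12 detected, with Hba-a2, Slc4a1 and Car1 at 0 in each library), against 2483 to 6436 CPM untreated. Granulocyte and monocyte markers summed to 112 to 147 CPM at day 6 against 254 to 2264 CPM untreated, lymphoid markers to 16.4 to 19.5 CPM against 25.9 to 88.5 CPM untreated, and endothelial and stromal markers to 80.3 to 121 CPM against 134 to 193 CPM untreated, none with overlap. Macrophage markers were higher for 11 of 12 genes, with sums of 58.4 to 622 CPM at day 6 and 44.8 to 66.6 CPM untreated. Megakaryocyte sums overlapped, but by gene 0 of 7 tested were higher and 4 lower (median log2 change -1.45). The part of these transcripts in the members' changes was not tested.

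By day 10, 2 of 9 members differed from untreated HSCs, Myc and Mga, both lower, a smaller share than the background, where 38.0% of all genes changed, 19.9% as higher and 18.1% as lower. Of the 5 antagonists, 0 passed at day 10 in edgeR's test, 0 had an unadjusted p under 0.05 and 0 passed in DESeq2. The lowest adjusted p among them was that of Mnt (0.108), with a log2 change of -0.21. Macrophage markers summed to 127 to 321 CPM at day 10 against 44.8 to 66.6 CPM untreated, erythroid markers to 348 to 1525 CPM against 2483 to 6436 CPM untreated, and HSC markers to 2797 to 3702 CPM against 5037 to 5863 CPM untreated. By gene, the HSC markers were mixed, with 2 of 11 higher and 3 lower (median log2 change -0.09). The interferon-induced gene Oas2 was at 136 to 831 CPM at day 10 and 31.9 to 83.1 CPM untreated, and introns took 60.1 ± 1.79% of gene reads at day 10 against 65.1 ± 1.28% untreated. Lymphoid markers summed to 12.3 to 20.1 CPM at day 10 against 25.9 to 88.5 CPM untreated, and endothelial and stromal markers to 196 to 584 CPM against 134 to 193 CPM untreated. Their part in the changes of Myc and Mga was not tested. Between day 10 and day 6, 4 of 9 members changed (30.6% of all genes did). Mxd1, Mxd4 and Mxi1 were higher at day 10 (14.7% of all genes were) and Mycn was lower (15.9% of all genes were). Granulocyte and monocyte markers (299 to 460.3 CPM at day 10, 112 to 147 CPM at day 6) and endothelial and stromal markers (196 to 584 CPM at day 10, 80.3 to 121 CPM at day 6) also separated these times, as did Oas2 (136 to 831 CPM at day 10, 30.6 to 44.7 CPM at day 6), and their part was not tested.

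In culture, Mga and 4 of the 5 antagonists changed. In cultured against uncultured HSCs 5 of 9 members changed, against 67.6% of all 12386 genes, so the network's share was below the background. Mxd3 was higher (33.8% of all genes were), and Mxd1, Mxd4, Mxi1 and Mga were lower (33.8% of all genes were). Granulocyte and monocyte markers summed to 36.8 to 63.2 CPM in cultured HSCs (3 to 6 of 11 detected, with Mpo, Ctsg, S100a8, S100a9 and Ly6c2 at 0 in each library), against 362 to 2567 CPM in uncultured HSCs. Megakaryocyte markers summed to 381 to 479 CPM in cultured against 544 to 1352 CPM in uncultured HSCs, macrophage markers to 28.3 to 35.6 CPM against 41.0 to 53.3 CPM uncultured, lymphoid markers to 8.29 to 10.9 CPM against 16.0 to 30.2 CPM uncultured, and endothelial and stromal markers to 89.7 to 104 CPM against 120.3 to 458 CPM uncultured, none with overlap. Erythroid markers summed to 757 to 873 CPM in cultured and 107 to 4837 CPM in uncultured HSCs. The part of these transcripts was not tested. Without the libraries that stood apart, the log2 change in culture was still -2.43 for Mxd4, -1.03 for Mxd1, -0.68 for Mxi1 and 1.49 for Mxd3, all past the threshold. That set keeps only replicates 2 and 3 of the uncultured HSCs. Replicate 2 had the group's highest megakaryocyte sum (1352 CPM) and replicate 3 its highest erythroid sum (4837 CPM), so transcripts of other cells remained. In CD48+ HPCs against CD48- HSCs, 3 of 9 members changed, near the background of 26.5% of 12719 genes. Myc was higher (14.0% of all genes were), and Mycn and Mxd1 were lower (12.5% of all genes were).

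**Figure D2:**
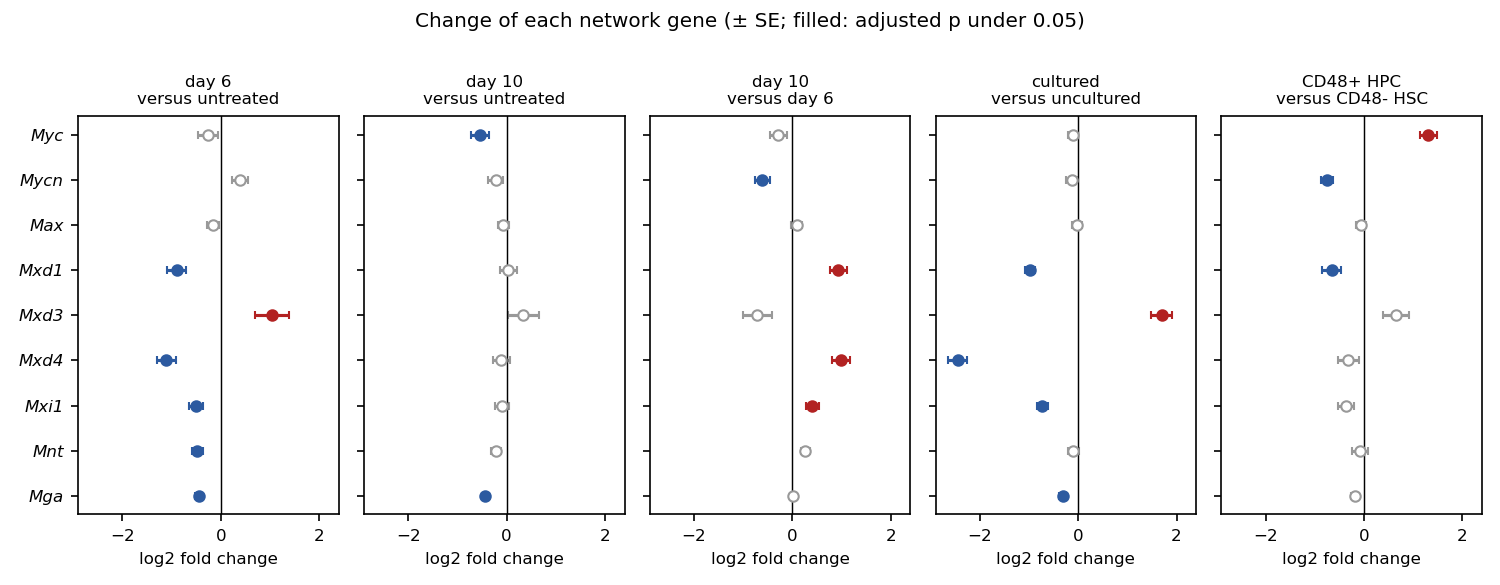
Log2 fold change of 9 members in 5 comparisons, 1 panel each, with the standard error as bars. Filled red marks are members that passed the test as higher, filled blue as lower, and open grey marks did not pass. Mxd4 (-2.45) and Mxd3 (1.70), both in culture, were the lowest and highest of all panels, and Myc (1.31) was the highest in CD48+ HPCs.

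Myc is the family's founding member and a regulator of cell growth (gene 17869, mm10 chr15:61985341-61990361, plus strand). It was at 254, 254, 168 and 254 CPM in CD48+ HPCs, against 121, 96.9, 79.0 and 79.6 CPM in CD48- HSCs. Each HPC library lay above each HSC library. The level was 2.48-fold higher in HPCs (log2 change 1.31 ± 0.16 SE, edgeR adjusted p = 0.000361, n = 4 each). Intron reads moved in the same direction without passing, with a log2 change of 0.70 (adjusted p = 0.0783). Mki67, a marker of cycling cells, was at 686 ± 21.8 CPM in HPCs and 346 ± 80.4 CPM in CD48- HSCs. How far the Myc difference follows the share of cycling cells was not tested. Macrophage markers summed to 189 to 1348 CPM in HPCs against 87.8 to 378 CPM in CD48- HSCs, and granulocyte and monocyte markers to 548 to 835 CPM in HPCs against 271 to 413 CPM in CD48- HSCs. Megakaryocyte markers summed to 236 to 289 CPM in HPCs against 808 to 1131 CPM in CD48- HSCs. By gene they were mixed, with 1 of 7 tested higher and 2 lower (14.0% and 12.5% of all genes). Their median log2 change was 0.42, so the sum does not stand for each marker. The part of these cells in the Myc difference was not tested, and without the libraries that stood apart, which include the HPC library with most macrophage transcripts, the log2 change was 1.37 (adjusted p = 0.000209).

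After 5-FU, Myc did not rise in HSCs. The libraries had 235, 177, 159 and 133 CPM untreated, 116, 179.8, 123 and 169 CPM at day 6, and a lowest, median and highest level of 88.4, 124.9 and 159 CPM at day 10. The ranges of all 3 groups overlapped. At day 6 the exon-level log2 change of -0.26 ± 0.20 did not pass (edgeR adjusted p = 0.292), whereas intron reads of Myc, at 62 to 147 reads a library at day 6 against 182 to 404 untreated, gave -1.07 (adjusted p = 0.0119). At day 10 the exon-level log2 change was -0.54 ± 0.18 (adjusted p = 0.0268). That call ended when untreated replicate 1 (adjusted p = 0.121) or 2 (0.0512), or day-10 replicate 2 (0.05001) or 6 (0.0514), was left out, and without the libraries that stood apart (0.0777).

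Culture left no detectable change in Myc. It was at 220.2, 227, 251 and 285 CPM in cultured HSCs and 239, 310.1, 277 and 253 CPM in uncultured HSCs, ranges that overlap. The log2 change was -0.11 (95% interval -0.31 to 0.08, edgeR adjusted p = 0.338). The control HSCs of the 2 experiments did not overlap in Myc, with 239 to 310.1 CPM uncultured and 133 to 235 CPM untreated, so levels are not compared across experiments without that gap in view.

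Mycn encodes a paralogue with the same partner and DNA site (gene 18109, chr12:12936093-12941836, minus strand). In CD48+ HPCs it was at 170.3, 149.9, 118 and 163 CPM, against 307, 233, 242 and 238 CPM in CD48- HSCs. The HPC libraries were all below the HSC libraries. Mycn was 1.69-fold lower in HPCs (log2 change -0.75 ± 0.13, edgeR adjusted p = 0.00186), opposite in sign to Myc.

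In the 5-FU series, Mycn was at 342, 259.9, 279.8 and 230.2 CPM untreated, at 328, 380.4, 357 and 392 CPM at day 6, and at 160.3, 247 and 305 CPM (lowest, median, highest) at day 10. Day 10 lay wholly below day 6, while day 6 and untreated overlapped through untreated replicate 1. Day 10 was lower than day 6 by a log2 change of -0.61 ± 0.15 (edgeR adjusted p = 0.00740). The day-6 change against untreated, 0.39 ± 0.17, did not pass (adjusted p = 0.0630), but it did in DESeq2 (adjusted p = 0.0418), with no filter on low counts (0.0461), with all 30 libraries in 1 fit (0.0393) and with the 2 groups alone (0.00781). It also passed without untreated replicate 1 (0.50, adjusted p = 0.0299) and without the libraries that stood apart (0.44, adjusted p = 0.0470).

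Cultured HSCs had 302, 306, 264 and 319.5 CPM of Mycn, and uncultured HSCs 275, 406, 348 and 294 CPM. These ranges overlap, and the exon-level log2 change of -0.13 (95% interval -0.35 to 0.09) did not pass (edgeR adjusted p = 0.331). Intron reads of Mycn went the other way, at 45.9 ± 6.70 intron CPM in cultured and 26.7 ± 10.4 in uncultured HSCs (log2 change 0.88, adjusted p = 0.0112). Without the libraries that stood apart the exon-level change passed as lower (-0.31, adjusted p = 0.0144). That set keeps only uncultured replicates 2 and 3, which had the group's highest Mycn (406 and 348 CPM).

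The ratio of Myc to Mycn separated the CD48 groups without overlap. Per kilobase of exon, Myc was 1.61, 1.83, 1.54 and 1.68 times Mycn in the 4 libraries of CD48+ HPCs, against 0.426, 0.451, 0.354 and 0.362 times in CD48- HSCs, a 4.20-fold difference of group means on the log scale. At day 6 the ratio was 0.434 ± 0.0669 and in untreated HSCs 0.680 ± 0.0694, again without overlap. Culture gave 0.896 ± 0.119 against 0.890 ± 0.0540 uncultured. These ratios restate the levels above and carry no test.

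Mycl, the third activator and known mainly from lung and dendritic cells (gene 16918, chr4:122995609-123002490, plus strand), had reads in 10 of the 30 libraries, at most 17 in CD48+ HPC replicate 3. No read was counted in the 4 libraries of day 6 or the 4 of CD48- HSCs. A count of 3 reads, the limit that a count of 0 allows, corresponds to 0.252 to 0.556 CPM depending on the library. Mycl was too low to be tested in any comparison.

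Max encodes the shared dimer partner (gene 17187, chr12:76937269-76962343, minus strand). It had 44.0, 39.3, 39.3 and 40.0 CPM untreated, 36.1, 39.7, 36.4 and 33.9 CPM at day 6, and 28.2, 40.3 and 44.5 CPM (lowest, median, highest) at day 10. It had 38.7 ± 3.08 CPM in cultured and 40.2 ± 2.36 CPM in uncultured HSCs, and 31.8 ± 1.13 CPM in CD48+ HPCs against 33.3 ± 2.18 CPM in CD48- HSCs. The ranges overlapped within each of the 5 comparisons. Log2 changes lay between -0.15 and 0.09, and the widest 95% interval, at day 6, ran from -0.39 to 0.08 (edgeR adjusted p = 0.305).

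Mxd4 encodes a MAX-binding repressor linked to differentiation and cell cycle exit (gene 17122, chr5:34176580-34187710, minus strand). It showed the network's largest change. Cultured HSCs had 5.72, 6.84, 3.60 and 4.28 CPM, against 29.2, 26.8, 29.8 and 28.4 CPM in uncultured HSCs. The 2 groups were far apart. Mxd4 was 5.45-fold lower in cultured HSCs (log2 change -2.45 ± 0.19, edgeR adjusted p = 2.70e-07, n = 4 each). Its intron reads were at 4.55 ± 0.886 intron CPM in cultured and 21.4 ± 5.67 in uncultured HSCs.

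After 5-FU, Mxd4 was low at day 6 and near the untreated level at day 10. It was at 30.2, 24.5, 25.9 and 24.1 CPM untreated, at 14.8, 8.19, 13.2 and 12.4 CPM at day 6, and at 17.2, 25.2 and 29.9 CPM (lowest, median, highest) at day 10. Day 6 did not overlap with either neighbour. The log2 change was -1.11 ± 0.20 for day 6 against untreated (edgeR adjusted p = 0.000238) and 1.00 ± 0.18 for day 10 against day 6 (adjusted p = 0.00105). Day 10 against untreated gave -0.11 (95% interval -0.45 to 0.23, adjusted p = 0.646).

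The fall in culture was larger than the fall at day 6. The difference between the changes was -1.37 ± 0.31 on the log2 scale (interaction term over 30 libraries, edgeR adjusted p = 0.00271). Mxd4 was the only 1 of 9 members called in this interaction, where 15.1% of 13468 genes were called, 6.36% as higher and 8.77% as lower. In CD48+ HPCs, Mxd4 had 18.5, 32.9, 18.0 and 25.9 CPM against 34.0, 26.0, 35.9 and 23.4 CPM in CD48- HSCs. These overlapped and did not pass (log2 change -0.32, adjusted p = 0.287).

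Mxd1, also named Mad1, encodes a repressor that helps granulocyte precursors leave the cell cycle in mice (gene 17119, chr6:86647044-86669326, minus strand). Cultured HSCs had 41.3, 36.2, 43.2 and 32.3 CPM, against 67.2, 78.0, 81.6 and 80.8 CPM in uncultured HSCs. No cultured library reached the lowest uncultured one (log2 change -0.98 ± 0.11, edgeR adjusted p = 4.56e-06).

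In the 5-FU series, Mxd1 was at 73.2, 71.5, 88.4 and 102 CPM untreated, at 50.6, 47.4, 37.5 and 44.1 CPM at day 6, and at 65.9, 79.0 and 132 CPM (lowest, median, highest) at day 10. All day-6 libraries lay below those of both other times, and the highest day-10 library was replicate 6, the one with the highest Cxcl10 and Oas2. The log2 change was -0.90 ± 0.19 at day 6 (edgeR adjusted p = 0.00104; -0.34 and not called with intron reads) and 0.93 ± 0.18 for day 10 against day 6 (adjusted p = 0.00132). For day 10 against untreated it was 0.04 (95% interval -0.30 to 0.37), and its sign turned without day-10 replicate 6 (-0.12).

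In CD48+ HPCs, Mxd1 had 46.8, 76.3, 53.0 and 75.7 CPM, against 107, 85.5, 128 and 78.5 CPM in CD48- HSCs. The groups did not overlap, by a narrow margin. Mxd1 was lower in HPCs by a log2 change of -0.66 ± 0.19 (edgeR adjusted p = 0.0253), but the call ended without CD48- replicate 1 (adjusted p = 0.0650) or 3 (0.0729), without HPC replicate 1 (0.0735) or 3 (0.0622), with intron reads (-0.39, adjusted p = 0.128), with the replicate number as a block (0.0557), and without the libraries that stood apart (-0.44, adjusted p = 0.133).

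Mxi1, also named Mad2 or Mxd2, encodes another repressor of the family (gene 17859, chr19:53310414-53375810, plus strand). In cultured HSCs it was at 44.9, 40.4, 38.0 and 33.6 CPM, against 79.0, 63.2, 65.4 and 57.3 CPM in uncultured HSCs, without overlap (log2 change -0.73 ± 0.12, edgeR adjusted p = 0.000152). At day 6 it was at 51.6, 46.0, 46.8 and 43.6 CPM, against 61.5, 60.7, 71.7 and 72.6 CPM untreated, also without overlap (-0.50 ± 0.15, adjusted p = 0.0116). At day 10 its levels spread from 41.7 to 74.8 CPM with a median of 67.5 CPM and overlapped with both other times.

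The rise of Mxi1 at day 10 against day 6 (log2 change 0.41 ± 0.14, edgeR adjusted p = 0.0374) rested on single libraries and settings. It did not pass with no filter on low counts (adjusted p = 0.0567), with the replicate number as a block (0.0637) or with the 2 groups alone (0.0530). Nor did it pass without day-6 replicate 2, 3 or 4 (adjusted p = 0.0867, 0.0803 and 0.102) or day-10 replicate 2, 3, 4 or 5 (adjusted p = 0.0646, 0.0626, 0.0953 and 0.0777). In CD48+ HPCs Mxi1 had 62.1 ± 9.32 CPM, against 80.4 ± 17.5 CPM in CD48- HSCs, with overlap, a log2 change of -0.37 (adjusted p = 0.120). That change passed without CD48- replicate 2 (-0.50, adjusted p = 0.0184) and with intron reads (-0.52, adjusted p = 0.0130).

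Mnt encodes a large MAX-binding repressor present in both resting and dividing cells (gene 17428, chr11:74830781-74845725, plus strand). At day 6 it had 46.5, 51.0, 49.5 and 56.2 CPM, against 69.1, 84.1, 64.9 and 64.2 CPM untreated. The groups did not overlap, and the log2 change was -0.47 ± 0.11 (edgeR adjusted p = 0.00198), with -0.41 in intron reads (adjusted p = 0.133). At day 10 it lay between 53.7 and 70.4 CPM with a median of 61.3 CPM, which overlaps with both other times. The log2 change of 0.27 for day 10 against day 6 did not pass (adjusted p = 0.0555), but did in DESeq2 (0.0425), with the 2 groups alone (0.0440) and with intron reads (0.73, adjusted p = 0.0124). Cultured HSCs had 78.6 ± 9.68 CPM and uncultured HSCs 85.5 ± 12.3 CPM (log2 change -0.10, 95% interval -0.32 to 0.12, adjusted p = 0.458). CD48+ HPCs had 68.4 ± 17.0 CPM and CD48- HSCs 72.9 ± 9.13 CPM (-0.09, interval -0.41 to 0.24, adjusted p = 0.738).

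Mxd3, also named Mad3, is known as the family member expressed in S phase of dividing mouse cells (gene 17121, chr13:55325168-55330046, minus strand). It was the antagonist that rose. Cultured HSCs had 36.8, 28.7, 24.5 and 31.2 CPM, against 9.96, 8.44, 13.6 and 6.03 CPM in uncultured HSCs. All cultured libraries were above all uncultured ones, and the log2 change was 1.70 ± 0.22, or 3.24-fold (edgeR adjusted p = 2.08e-05). Mki67, a marker of cycling cells, was at 618 ± 43.4 CPM in cultured and 184 ± 79.8 CPM in uncultured HSCs. How far the Mxd3 difference follows the share of cycling cells was not tested.

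At day 6, Mxd3 had 11.1, 16.9, 15.4 and 12.4 CPM, against 7.44, 11.9, 5.00 and 2.72 CPM untreated. The groups overlapped through untreated replicate 2. The log2 change was 1.05 ± 0.34 (edgeR adjusted p = 0.0177), and it did not pass without untreated replicate 3 (adjusted p = 0.0530), without day-6 replicate 2 (0.0524) without the libraries that stood apart (0.0504) or with intron reads (0.57, adjusted p = 0.305). Mki67 was at 608 ± 27.2 CPM at day 6 and 167 ± 75.5 CPM untreated.

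Day 10 held 4.97, 8.53 and 11.2 CPM of Mxd3 (lowest, median, highest), a log2 change of -0.71 against day 6 that did not pass (edgeR adjusted p = 0.0836) but did with the replicate number as a block (-0.91, adjusted p = 0.0365) and with the 2 groups alone (0.0221). CD48+ HPCs had 12.8, 18.9, 16.2 and 26.0 CPM, against 13.7, 14.4, 12.0 and 6.93 CPM in CD48- HSCs. The HPC libraries overlapped with the HSC libraries, and the log2 change of 0.65 ± 0.26 did not pass (edgeR adjusted p = 0.0876). Mki67 was at 440 ± 47.4 CPM at day 10 and 167 ± 75.5 CPM untreated. Between those groups Mxd3 did not pass (log2 change 0.34, edgeR adjusted p = 0.425). In CD48+ HPCs Mki67 was at 686 ± 21.8 CPM, against 346 ± 80.4 CPM in CD48- HSCs. Mxd3 had 19 to 322 reads a library. It overlaps Prelid1 on the opposite strand by 105 bases, and since the use of strand in counting is not given in the sources used here, reads of the 2 genes there cannot be told apart. Prelid1 had up to 3261 exon reads in a library, over 1089 bases of exon. The part of its reads in the Mxd3 counts was not tested.

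The antagonists thus changed in makeup. As a share of the summed antagonist level per kilobase of exon, Mxd3 held 43.3 ± 4.12% in cultured and 10.2 ± 2.76% in uncultured HSCs, and Mxd4 held 8.06 ± 2.18% in cultured and 34.3 ± 1.48% in uncultured HSCs. At day 6, Mxd3 held 23.8 ± 4.80% against 7.88 ± 4.47% untreated, and Mxd4 22.7 ± 4.95% at day 6 against 33.8 ± 3.39% untreated. In CD48+ HPCs, Mxd3 held 21.1 ± 3.54%, against 11.5 ± 3.12% in CD48- HSCs. These shares depend on exon length, which is 1299 bases for Mxd3 and 1179 for Mxd4, but 6505 for Mnt. In CPM, Mnt (78.6 ± 9.68) stood above Mxd3 (30.3 ± 5.13) in cultured HSCs.

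**Figure D3:**
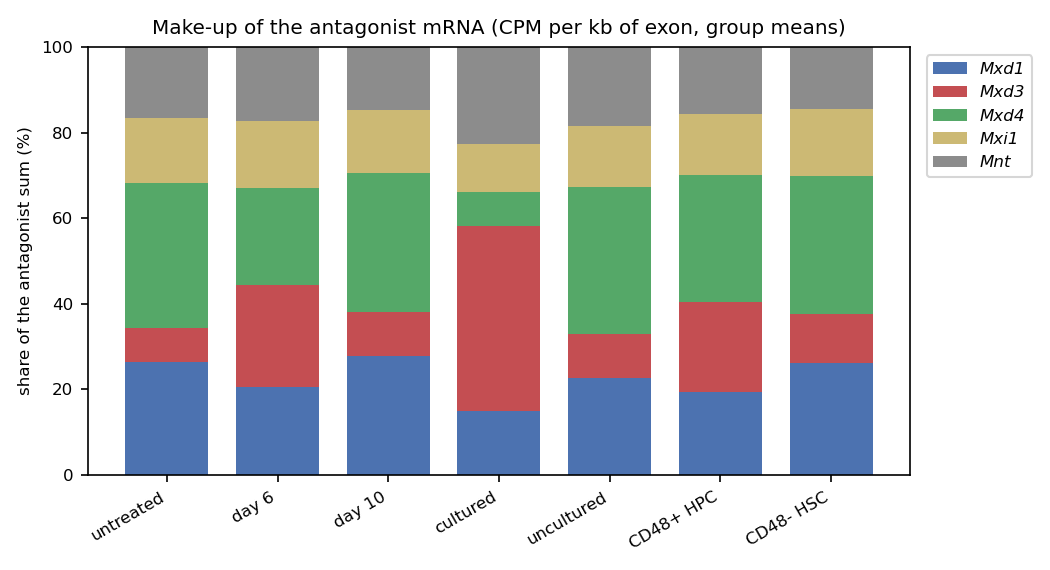
Makeup of the antagonists in each group, as the percentage that Mxd1, Mxd3, Mxd4, Mxi1 and Mnt hold of their summed mean level per kilobase of exon. Bars are stacked to 100%, 1 per group, with no error shown. The Mxd3 share was largest and the Mxd4 share smallest in cultured HSCs, at about 43.3% and 8.06%.

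Mga encodes a large protein with a T-box and a MAX-binding domain that holds PRC1.6 together (gene 29808, chr2:119871643-119970129, plus strand). It was at 444, 402, 432 and 406 CPM untreated, at 310.0, 306, 319 and 299 CPM at day 6, and at 266, 323 and 338 CPM (lowest, median, highest) at day 10. All libraries of day 6 and day 10 lay below all untreated ones. The log2 change against untreated was -0.45 ± 0.07 at day 6 (edgeR adjusted p = 0.000144) and -0.43 ± 0.07 at day 10 (adjusted p = 0.000180), while day 10 against day 6 gave 0.02 (95% interval -0.12 to 0.15). Its day-6 call ended with intron reads (-0.14, adjusted p = 0.216).

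In cultured HSCs Mga had 281, 299.9, 318 and 345 CPM, against 357, 382, 391 and 437 CPM in uncultured HSCs, without overlap (log2 change -0.31 ± 0.08, edgeR adjusted p = 0.00384). That call too ended with intron reads (-0.10, adjusted p = 0.350). In CD48+ HPCs it had 265, 266, 279 and 273 CPM, against 301, 296, 292 and 354 CPM in CD48- HSCs. The CD48 groups did not overlap, but the log2 change of -0.19 ± 0.08 did not pass (adjusted p = 0.109), although it did with all 30 libraries in 1 fit (0.0482).

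Set against each other per kilobase of exon, the summed activators were 2.74 ± 0.510 times the summed antagonists in untreated HSCs, 4.46 ± 0.614 times at day 6 and 2.24 ± 0.350 times at day 10. By library the ratio was 3.45, 2.60, 2.68 and 2.24 untreated, 3.75, 4.96, 4.15 and 4.98 at day 6, and 1.61, 2.24 and 2.62 (lowest, median, highest) at day 10. Day 6 lay above both other times without overlap, and day 10 and untreated overlapped. The day-6 ratio was 1.64-fold that of untreated HSCs. The antagonist sum was 45.3 ± 0.968 CPM per kilobase at day 6 against 65.7 ± 1.20 untreated, without overlap, whereas the activator sum was 202 ± 23.7 at day 6 against 180.4 ± 35.6 untreated, with overlap.

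In cultured HSCs the activators were 3.51, 4.05, 4.17 and 4.55 times the antagonists, against 2.96, 4.26, 3.20 and 3.21 times in uncultured HSCs. The groups overlapped, and the mean ratio on the log scale was 1.20-fold that of uncultured HSCs. Both sums were lower in culture, with 217 ± 16.7 CPM per kilobase in cultured against 239.9 ± 35.5 in uncultured HSCs for activators, and 53.6 ± 4.13 in cultured against 70.7 ± 5.02 in uncultured HSCs for antagonists. CD48+ HPCs had ratios of 3.29, 1.97, 2.10 and 2.13, against 1.97, 1.81, 1.39 and 1.91 in CD48- HSCs, with overlap (1.32-fold). Sums over genes are led by those abundant per kilobase, so genes with short exon length weigh more than they do in CPM. The sums say nothing of protein, and they carry no test here.

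**Figure D4:**
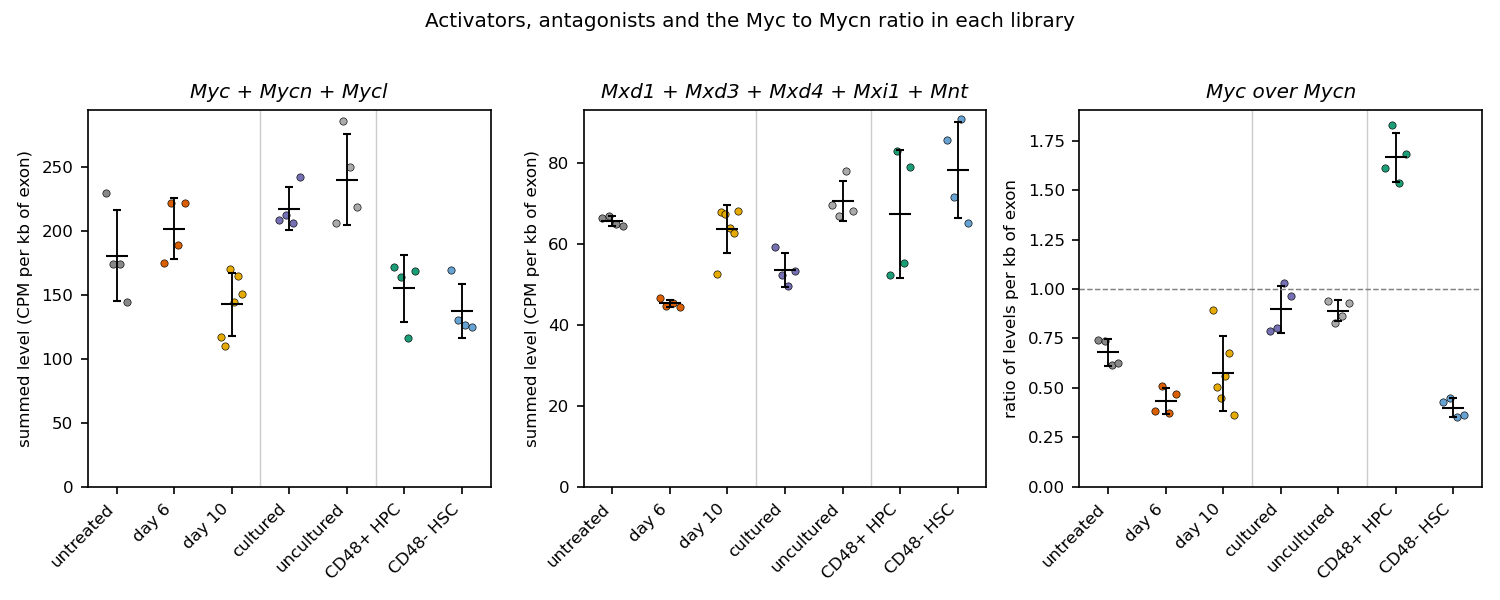
Summed activators, summed antagonists (both in CPM per kilobase of exon) and the ratio of Myc to Mycn in each library. Points are libraries, horizontal marks are group means and error bars SD, and the dashed line marks a ratio of 1. The antagonist sum of day-6 HSCs (45.3 ± 0.968) lay below that of untreated HSCs (65.7 ± 1.20), and Myc exceeded Mycn in CD48+ HPCs.

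The neighbouring MLX branch was led by Mlxip, which encodes MONDOA, a glucose-responsive factor that pairs with MLX. Mlxip was at 328 ± 26.6 CPM untreated, 227 ± 13.7 CPM at day 6 and 349.5 ± 19.6 CPM at day 10, and the log2 change was -0.53 at day 6 (edgeR adjusted p = 2.65e-05) and 0.62 for day 10 against day 6 (adjusted p = 3.01e-05). Cultured HSCs had 160.5 ± 8.84 CPM and uncultured HSCs 313 ± 40.4 CPM (-0.94, adjusted p = 1.27e-06). CD48+ HPCs had 257 ± 28.0 CPM, against 335 ± 38.2 CPM in CD48- HSCs (-0.38, adjusted p = 0.0259). Mlx, the shared partner of that branch, rose in culture (31.5 ± 1.15 CPM cultured against 25.1 ± 1.97 CPM uncultured, log2 change 0.35, adjusted p = 0.0121). Mlxipl, a liver and fat factor, never exceeded 10 reads and was not tested.

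Known MYC-activated targets moved together at day 6 and in culture, although exon reads of Myc and Mycn passed in neither. Of 56 such genes, 50 were higher and 1 lower at day 6 (median log2 change 0.92, against -0.04 for all genes, of which 25.7% were higher and 25.7% lower), and 52 were higher and 1 lower in cultured HSCs (median 1.23, against -0.01 for all genes, of which 33.8% were higher and 33.8% lower). Nme1, a nucleoside diphosphate kinase, was at 124 ± 10.5 CPM at day 6 and 32.6 ± 2.30 CPM untreated. Eif5a, a translation factor, was at 1287 ± 39.4 CPM in cultured and 459 ± 6.49 CPM in uncultured HSCs. These targets were chosen for their textbook link to MYC, are mostly genes of ribosome assembly and growth, and 1 of them, Tfrc, is also an erythroid marker. This list and those below were drawn up with earlier results of these data known. Their counts are thus a description and not an independent test.

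At day 10 against untreated, 28 targets were higher and 3 lower (median 0.33; 19.9% and 18.1% of all genes), and without the libraries that stood apart the counts were 22 and 2. Against day 6, 0 were higher and 50 lower at day 10 (median -0.52; 14.7% and 15.9% of all genes). Srm, spermidine synthase, was at 138 ± 23.2 CPM at day 10 and 303 ± 43.9 CPM at day 6. In CD48+ HPCs, where Myc was higher and Mycn lower, 39 were higher and 0 lower (median 0.61; 14.0% and 12.5% of all genes), or 31 and 0 without the libraries that stood apart. Mcm5, a subunit of the replicative helicase, was at 449 ± 57.7 CPM in HPCs and 187 ± 56.0 CPM in CD48- HSCs, and Hspd1, a mitochondrial chaperonin, at 138 ± 11.5 CPM in HPCs and 76.8 ± 11.6 CPM in CD48- HSCs. Counted by intron reads, 25 targets were higher and 1 lower at day 6, 37 higher and 5 lower in cultured HSCs, and 16 higher and 1 lower in CD48+ HPCs. The shares of all genes given here are for exon reads in the full set of libraries. They do not apply to counts by intron reads or without the libraries that stood apart. In the promoter table, which covers 48 of the 56 targets, 19 of 63 windows hold the E-box (30.2%), against 7.15% of all windows. Since MYC binds E-boxes and the list was picked for its link to MYC, that share describes the list and not these data.

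MYC-repressed targets were fewer and mixed. Of 10 tested, 2 were higher and 5 lower at day 6 and also in cultured HSCs (median log2 change -0.26 and -0.41). Of all genes, 25.7% were higher and 25.7% lower at day 6, and 33.8% and 33.8% in culture. Ndrg1, a stress and differentiation gene, was at 24.3 ± 3.45 CPM at day 6 against 81.3 ± 10.4 CPM untreated. Cdkn1b, the cell cycle inhibitor p27, was at 37.7 ± 9.27 CPM in cultured and 116 ± 13.7 CPM in uncultured HSCs. Itgb1, an integrin subunit, went the other way, at 161 ± 9.85 CPM at day 6 against 114 ± 14.7 CPM untreated. In CD48+ HPCs, 1 of 9 tested was higher and 1 lower (14.0% and 12.5% of all genes).

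The lists around the network below are read against all genes, of which 25.7% were higher and 25.7% lower at day 6, 33.8% and 33.8% in culture, and 14.0% and 12.5% in CD48+ HPCs. Several stood near these shares, among them the MYC coactivators in culture, with 10 of 15 called against 67.6% of all genes. Among 15 genes of the SIN3 corepressor, through which MXD proteins act, 6 were higher and 2 lower at day 6, and 9 higher and 3 lower in cultured HSCs. The histone chaperone Rbbp7 was at 277 ± 22.6 CPM at day 6 and 140.1 ± 6.71 CPM untreated, while Arid4a, a DNA-binding subunit, was at 37.6 ± 4.68 CPM in cultured and 92.3 ± 6.44 CPM in uncultured HSCs. Of 15 MYC coactivators, 7 were higher and 2 lower at day 6, and 7 higher and 3 lower in culture. Actl6a, an actin-like subunit of chromatin remodellers, was at 111 ± 8.99 CPM at day 6 and 47.3 ± 3.42 CPM untreated. The acetyltransferase gene Ep300 was higher at day 10 than at day 6, at 341 ± 18.7 CPM at day 10 against 264 ± 6.58 CPM at day 6.

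Of 12 other genes of PRC1.6, the complex that MGA holds together, 7 were higher and 1 lower at day 6, 8 higher and 2 lower in culture, and 5 higher and 0 lower in CD48+ HPCs. Tfdp1, the E2F dimer partner, was at 393 ± 39.0 CPM at day 6 against 145 ± 6.70 CPM untreated, and L3mbtl2, a histone-binding subunit, at 78.2 ± 5.14 CPM in HPCs against 53.6 ± 4.06 CPM in CD48- HSCs. Hdac1, Hdac2 and Wdr5 stand in 2 of these lists each. Of 14 genes that set MYC protein turnover, 7 were higher and 0 lower at day 6, 9 higher and 1 lower in culture, and 6 higher and 0 lower in CD48+ HPCs. Stub1, a ubiquitin ligase, was at 142 ± 2.86 CPM in cultured and 52.5 ± 5.16 CPM in uncultured HSCs, and Plk1, a mitotic kinase, at 120.2 ± 8.33 CPM in HPCs and 39.4 ± 13.5 CPM in CD48- HSCs.

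**Figure D5:**
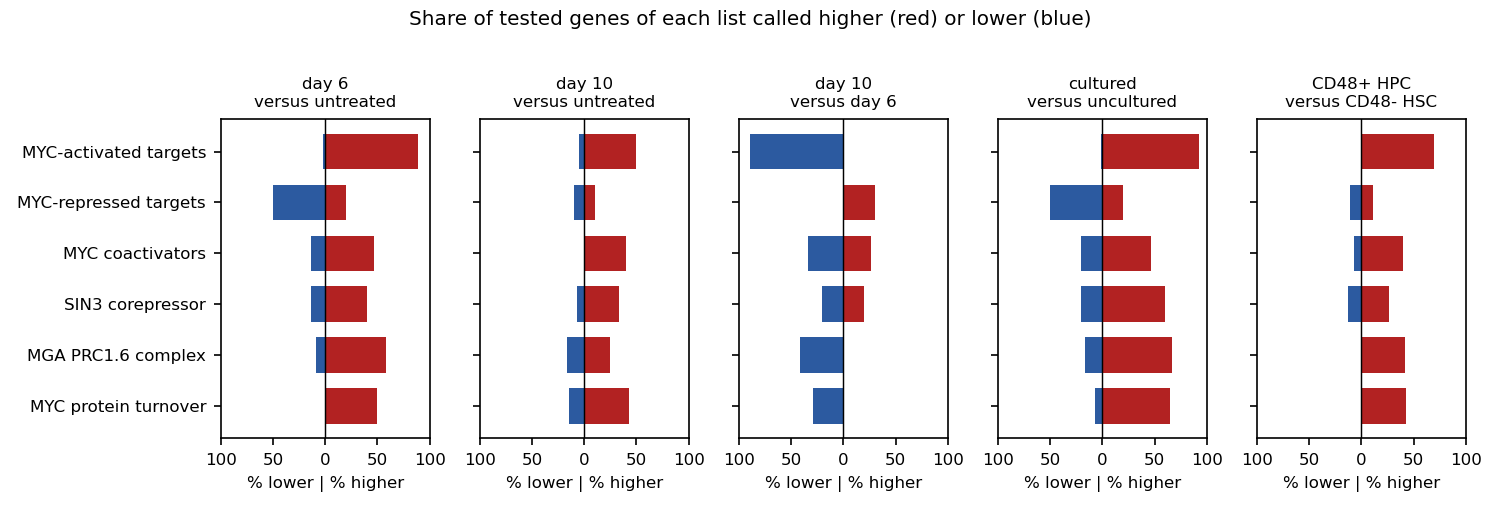
Share of tested genes called higher (red) or lower (blue) in 6 lists around the network, 1 panel per comparison, in percent of the genes tested in that list. The MYC-activated targets were mostly higher at day 6 (50 of 56) and in culture (52 of 56) and mostly lower at day 10 against day 6 (50 of 56).

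Across the 30 libraries, Mxd1, Mxd4 and Mxi1 varied together, and Myc and Mycn little. Pearson's r of log2(CPM + 1) was 0.84 between Mxd4 and Mxi1, 0.80 between Mxd1 and Mxd4 and 0.75 between Mxd1 and Mxi1. Mxd3 ran against them, with -0.64 for Mxd4 and -0.60 for Mxd1. Myc and Mycn stood at 0.12. These values describe 30 libraries that share groups, depth and scaling, and no p is given.

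Among 6461 well-expressed genes, those most like Mxd4 over the 30 libraries were Calcoco1 (r = 0.98) and Fbxl20, Pdcd4 and Dtx3 (r = 0.97 each), and the most opposite were Hsd17b12 and Wdr5 (r = -0.95 each). For Mxd1 they were Grina (0.94), Hivep1, H2-T24 and Gtpbp2 (0.90 each), with Cluh and Ept1 opposite (-0.91 each). The likeness of other genes to the activators was lower. Anapc11 (0.79), Fpgs (0.78), Inafm2 (0.77) and Tmem201 (0.76) were most like Myc, and Anxa5 (-0.86) and Capg (-0.82) most opposite. Fhl1 (0.81), Cish (0.79), Epb41l4b (0.77) and Obsl1 (0.76) were most like Mycn, and Cdk6 (-0.83) and Gnptab (-0.79) most opposite.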

How the data were processed

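The deposited files hold counts per gene, as total exon, unique exon and intron reads, per the file headers. The genome build is mm10, per the submitters' processing notes. Which aligner and counting program made the files, and whether strand was used, is not given in the sources used here. Exon reads were summed per gene identifier, and each of the 10 members had 1 entry. A check within each group for libraries deposited more than once found none, since chi-square over degrees of freedom lay between 2.44 and 43.3 in replicate pairs. Pairs of libraries from different groups were not checked.

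The main test was the quasi-likelihood F test of edgeR (version 4.0.16, under R 4.3.3) on group means, after filterByExpr and TMM scaling. Each experiment had its own fit, with Benjamini-Hochberg adjustment over all genes tested and a threshold of 0.05. The culture and day-6 changes were compared by an interaction term over 30 libraries. Intervals are the log2 change ± 1.96 SE. CPM use TMM-scaled sizes over the 30 libraries. The floor of 3 counts covers counting error only. Other settings were RLE scaling, no filter on low counts, DESeq2 1.42.0, unique or intron reads, other sets of libraries in the fit, the replicate number as a block, and each library left out. The fits were tested on simulated data. Summaries used pandas 2.3.3 and NumPy 2.4.6 under Python 3.11.15, and plots used matplotlib 3.10.9.

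Members and lists were chosen with earlier results of these data known. All members and the MLX branch are named in each comparison, with up to 3 genes per list by smallest p among called genes with a mean of at least 5 log2 CPM in the higher group, and the genes most and least like Myc, Mycn, Mxd1 and Mxd4. A part of these is printed.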

Additional observations from a re-analysis of the deposited data

Results flagged for a closer look

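Among 63 groups of values of the network members, 5 held a library whose gap to its nearest neighbour was large for the group's range. Chance gives such a gap in about 1 in 20 groups. Myc was at 168 CPM in CD48+ HPC replicate 3, below the other HPC libraries at 254 CPM each, and this library also stood apart by macrophage transcripts. Mxd1 was at 132 CPM in day-10 replicate 6, the library with the highest Cxcl10 and Oas2 of a group in which each library was above the untreated ones in both genes. Mycn was at 307 CPM in CD48- replicate 1, where the other CD48- HSC libraries had 233 to 242 CPM. Max was at 44.0 CPM in untreated replicate 1, against 39.3 to 40.0 CPM in the others. Mga was at 354 CPM in CD48- replicate 4, and the other CD48- HSC libraries had 292 to 301 CPM.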

How the results depend on the processing

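Of the members' values under other settings, 907 kept direction and side of the threshold, 32 turned direction, 19 newly passed and 32 no longer passed. Mxd4 passed at day 6, at day 10 against day 6, in culture and in the interaction under every alternative run. With intron reads, the genes called were 4063 at day 6, 2815 at day 10, 2542 for day 10 against day 6 and 1755 in the CD48 comparison, and the members called were 3 at day 6 and 2 in the interaction. Without the libraries that stood apart, a set chosen after seeing the data, 1305 genes were called in the interaction, and the members called were 1 at day 10 and 2 in the interaction, where Mycn was added (-0.77, adjusted p = 0.0290). Of the uncultured HSCs, that set keeps only replicates 2 and 3, which had the group's highest Mycn (406 and 348 CPM). The cause of these shifts was not tested.

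With 1 library left out, the genes called ranged from 5945 to 6321 at day 6, 3997 to 5049 at day 10, 2838 to 4198 for day 10 against day 6, 7942 to 8292 in culture, 2139 to 3496 for CD48 and 1551 to 1965 in the interaction. The lowest CD48 count was without HPC replicate 1. The members called ranged from 5 to 7, 1 to 2, 3 to 4, 5 to 5, 2 to 4 and 1 to 2 in the same order of comparisons.

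Same-numbered libraries showed little common deviation (correlations -0.194 to 0.135). Whether they share more than a number is not said in the labels, and weak correlations cannot settle it. With the replicate number as a block, 6397, 3639, 3271, 8141, 2657 and 1699 genes and 6, 1, 4, 5, 2 and 1 members were called in that order, Myc being lost at day 10 (adjusted p = 0.0535), Mxd1 in CD48+ HPCs (0.0557) and Mxi1 for day 10 against day 6 (0.0637), where Mxd3 was gained (-0.91, adjusted p = 0.0365).

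Directions turned for small changes, and of these only Mycn in culture with intron reads (0.88) passed the test. At day 10, Mxd1 went to -0.072 (block) and -0.16 (without the libraries that stood apart), Mxd4 to 0.0011 (block), and with intron reads Max to 0.14, Mxd3 to -0.19 and Mnt to 0.32. With 1 library left out at day 10, Mxd1 ran from -0.12 to 0.14 and was below 0 without untreated replicate 1 or 2 or day-10 replicate 6, while Max ran from -0.10 to 0.020 and Mxi1 from -0.15 to 0.0016, both above 0 without day-10 replicate 1. For day 10 against day 6, Mga went to -0.015 (no filter), -0.0051 (unique reads) and -0.083 (intron reads) and ran from -0.025 to 0.034 with 1 library left out, below 0 without day-10 replicate 1 or 5. In that comparison Max went to -0.0037 (block) and Myc to 0.18 (intron reads). In culture, Max went to 0.012 (no filter) and 0.0095 (without the libraries that stood apart), and ran from -0.051 to 0.030 with 1 library left out, above 0 without uncultured replicate 1 or cultured replicate 2 or 3. Myc went to 0.057 in culture with intron reads. In CD48+ HPCs, Mnt went to 0.19 (intron reads) and 0.024 (without the libraries that stood apart), and ran from -0.24 to 0.032 with 1 library left out, above 0 without HPC replicate 3. In the interaction, Mycn went to 0.35 and Max to -0.17 (intron reads), and Myc to -0.038 (without the libraries that stood apart) and from -0.066 (without untreated replicate 1) to 0.24 with 1 library left out. Depth limits Mycl, with at most 17 reads, and Mxd3, with as few as 19.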
